A study of Mus musculus with 6 samples.

Results

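The Sprouty and Spred genes encode feedback inhibitors of the RAS to ERK pathway. The 6 genes Spry1, Spry2, Spry4, Spred1, Spred2 and Spred3 were taken by symbol from a table of read counts for 33924 mouse genes, and all 6 had enough reads to be tested. Spry3 was not analysed here. Their counts were read in 6 libraries of total RNA from bone marrow: 2 of leukemia 1, 2 of leukemia 92 and 2 of wild-type pro-B cells. Both leukemias carry the genotype Mll-Af4/N-RasG12D, in which the fusion of Mll with Af4 is joined by a mutant, active N-Ras.

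The leukemias began as lineage-depleted c-Kit+ Sca1+ progenitors sorted from the marrow of Mll-Af4 mice aged 6 to 8 weeks. These progenitors were kept overnight in lymphoid medium and infected with a retrovirus for Cre and TdTomato. Tomato+ cells were sorted and infected with a second retrovirus for N-RasG12D. Lethally irradiated mice (900 rads) then received 250000 of these cells together with 200000 wild-type helper marrow cells, so the hosts also held normal donor marrow. The pro-B cells were sorted as B220+ CD43+ IgM- cells from wild-type mice. They carry no fusion, and they went through neither culture nor infection nor transplantation. Leukemia and pro-B cells therefore differ in all of these steps at once, and the labels do not give the fraction of leukemic cells in a library. The labels also do not say whether the 2 libraries of a group came from separate animals, so p-values may measure technical spread only.

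Sprouty and Spred proteins are made in response to growth factor signalling and dampen it. Sprouty proteins act near the receptor, partly through binding of the adaptor GRB2 and the ubiquitin ligase CBL. Spred proteins recruit neurofibromin, the product of Nf1, to the membrane, where it returns RAS to its inactive form. Transcription of several family members follows ERK activity, so their transcripts are commonly read as output of the pathway. A RAS protein locked in its active form, such as N-RasG12D, responds poorly to neurofibromin.

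Start-site sequence was available in RefSeq (build GRCm38.p6) for 5 of the 6 genes, as windows from 250 bases before to 50 bases after the start. The 3 windows shown belong to genes that differed between leukemia and pro-B cells. Spred1 (chr2:117120821-117121120, plus strand) and Spred2 (chr11:19924192-19924491, plus strand) rose in leukemia. Spry2 (chr14:105896770-105897069, minus strand) fell. They are written 5′ to 3′ on the strand of the gene, and capitals mark matches to CGGAAG or to its reverse complement. CGGAAG is a sequence recognised by many ETS factors and extends their shorter core GGAA. GGAA alone was not searched, and it also occurs outside the capitals, including in the window of Spry2.
Spred1: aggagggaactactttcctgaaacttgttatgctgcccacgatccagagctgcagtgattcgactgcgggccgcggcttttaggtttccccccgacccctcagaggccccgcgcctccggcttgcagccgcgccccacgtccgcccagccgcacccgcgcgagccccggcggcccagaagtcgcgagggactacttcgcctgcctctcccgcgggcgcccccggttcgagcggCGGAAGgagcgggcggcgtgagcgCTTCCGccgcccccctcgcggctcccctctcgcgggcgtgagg
Spred2: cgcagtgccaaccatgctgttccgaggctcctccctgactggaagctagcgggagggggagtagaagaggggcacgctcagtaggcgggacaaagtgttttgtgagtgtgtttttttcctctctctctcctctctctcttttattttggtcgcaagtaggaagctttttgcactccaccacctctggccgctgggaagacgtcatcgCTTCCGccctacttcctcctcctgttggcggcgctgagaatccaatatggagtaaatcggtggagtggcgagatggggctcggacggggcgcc
Spry2: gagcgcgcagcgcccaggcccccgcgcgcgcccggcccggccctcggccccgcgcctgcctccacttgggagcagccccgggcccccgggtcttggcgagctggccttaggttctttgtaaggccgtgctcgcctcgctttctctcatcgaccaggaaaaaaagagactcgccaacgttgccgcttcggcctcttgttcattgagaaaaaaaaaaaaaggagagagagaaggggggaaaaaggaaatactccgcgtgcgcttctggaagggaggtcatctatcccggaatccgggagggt
The window of Spred1 held 2 matches, at -17 on the strand of the gene and at 8 on the opposite strand, counted from the start site. The window of Spred2 held 1 match, at -43 on the opposite strand. The windows of Spry2, Spry1 (chr3:37639697-37639996, plus strand) and Spred3 (chr7:29168598-29168897, minus strand) held none. Of 32851 windows of the same length, 16.9% held CGGAAG on either strand. The AP-1 site TGANTCA and the cyclic AMP response element TGACGTCA were also searched on both strands. None of the 5 windows held either one, against 7.81% and 1.79% of all windows. These motifs were chosen after the sequences had been seen, and a match describes letters and not binding.

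The libraries held 22153444 to 27444759 reads in genes, and levels are given as CPM, the reads of a gene scaled to the library size after TMM normalisation. The summed pro-B markers (14 genes) ranged from 6049 to 7651 CPM in leukemia and from 5324 to 6225 CPM in pro-B cells. Within that list the terminal transferase Dntt was at 604 and 970 CPM in pro-B cells and at 0 to 1.11 CPM in leukemia. Rag1, Rag2 and Il7r were also lower in every leukemia library than in both pro-B libraries. Cd79a, Cd79b, Vpreb1, Vpreb3 and Pax5 were higher in every leukemia library. Cd79a, for example, was at 993 to 1443 CPM in leukemia and 451 and 413 CPM in pro-B cells. The remaining genes of the list overlapped between leukemia and pro-B cells. Leukemia 1 replicate 2 stood apart. The sum of 14 granulocyte and monocyte markers was 18508 CPM there, against 471 CPM in leukemia 1 replicate 1, 2113 and 2877 CPM in leukemia 92, and 527 and 548 CPM in pro-B cells. The granulocyte gene S100a8 was at 3613 CPM in that library, against 45.0 CPM in its partner. Over all genes, the log2 differences between the 2 libraries of a group had an SD of 1.04 for leukemia 1, 0.253 for leukemia 92 and 0.249 for pro-B. A list of 12 T and NK cell markers summed to 364 and 389 CPM in pro-B cells and 6.38 to 43.5 CPM in leukemia. Plasmacytoid dendritic cell markers (8 genes) summed to 3889 and 4395 CPM in pro-B cells and 1073 to 1694 CPM in leukemia. Irf8 gave 722 to 1231 CPM of this sum in leukemia and 1272 and 1421 CPM in pro-B cells. Siglech was at 15.0 to 33.9 CPM in leukemia and 1369 and 1545 CPM in pro-B cells, while Cox6a2 and Pacsin1 overlapped. Erythroid and platelet markers (10 genes) summed to 66.9 and 157 CPM in pro-B cells and 2.36 to 8.76 CPM in leukemia. For stem and progenitor markers (9 genes) the sums were 207 and 217 CPM against 48.1 to 96.0 CPM. The summed stromal and endothelial markers (10 genes) were at 386 to 572 CPM in leukemia and 211 and 218 CPM in pro-B cells. Pecam1, which blood cells also make, gave 316 to 553 CPM of this sum in leukemia and 168 and 167 CPM in pro-B cells. Other members of that list went the other way: the endothelial Cdh5 was at 1.63 to 2.10 CPM in leukemia and 29.6 and 32.7 CPM in pro-B cells, and Kdr at 0.0406 to 0.444 CPM in leukemia and 4.93 and 5.11 CPM in pro-B cells. Vcam1 was at 52.5 CPM in leukemia 1 replicate 2 and at 0.370 to 7.22 CPM in the other libraries. The part of these cell types in the results on the family was not tested. In bulk RNA, fewer cells of a type and less RNA per cell cannot be told apart.

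Leukemia and pro-B cells differed in 4 of the 6 family genes. Spry4, Spred1 and Spred2 rose in leukemia, Spry2 fell, and Spry1 and Spred3 did not pass the test. For this comparison the reads of the 2 libraries of each leukemia were summed, and 2 leukemias were set against 2 pro-B libraries with the quasi-likelihood test of edgeR. Calls required p under 0.05 after Benjamini-Hochberg adjustment over the 15280 genes tested. Of those genes, 20.2% were called, 9.54% as higher and 10.7% as lower. The median log2 change of the 6 genes was 1.60, against 0.02 over all genes tested. In 5 of the 6 genes, all but Spred3, the 4 leukemia libraries lay wholly on 1 side of both pro-B libraries, as did 50.7% of all genes.

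Spry4, a Sprouty protein that inhibits RAS signalling downstream of receptors, had the largest change of the family. It was at 1.30 and 2.26 CPM in the pro-B libraries. In leukemia 1 it was at 73.3 and 31.4 CPM, and in leukemia 92 at 41.6 and 44.7 CPM. The groups lay far apart. The lowest leukemia value came from leukemia 1 replicate 2, the library with most granulocyte transcripts. The pro-B values rest on 35 and 58 reads. The stromal and endothelial sum was higher in the same 4 libraries as Spry4, Spred1 and Spred2, with Pecam1 as most of it, and its part was not tested. The log2 change was 4.73 (SE 0.35, adjusted p = 0.011), a 26.6-fold rise. It ranked 262 among 15280 genes ordered from the largest rise. Spry4 kept its call when any 1 leukemia library was left out. Leaving out pro-B replicate 1 gave an adjusted p of 0.0997, and leaving out pro-B replicate 2 gave 0.094. With 1 pro-B library left edgeR called 0 genes at all, against 2645 and 2650 genes at an unadjusted p under 0.05.

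Spry2, which binds CBL and GRB2, went the other way. It was at 31.0 and 42.6 CPM in pro-B cells. In leukemia 1 it was at 12.1 and 25.7 CPM, and in leukemia 92 at 14.1 and 15.8 CPM. The highest leukemia value came from leukemia 1 replicate 2, the library rich in granulocyte transcripts, and it was still below both pro-B libraries. The log2 change was -1.11 (SE 0.23, adjusted p = 0.046), a 2.15-fold fall. Leaving out leukemia 1 replicate 1 gave a change of -0.84 and ended the call (adjusted p = 0.18), whereas leaving out its partner gave -1.44 (adjusted p = 0.038). Leaving out pro-B replicate 1 or pro-B replicate 2 also ended it (adjusted p = 0.22 and 0.38). The summed T and NK cell, dendritic cell, erythroid and platelet, and stem and progenitor markers were lower in the same libraries as Spry2, and their part in this difference was not tested.

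Spry1, an inhibitor of receptor signalling best known from kidney development, was low throughout. It was at 10.5 and 16.3 CPM in pro-B cells, 9.47 and 6.69 CPM in leukemia 1, and 2.18 and 2.24 CPM in leukemia 92. All leukemia values were below both pro-B values, and leukemia 1 replicate 1 came close to the lower of these. The log2 change of -1.41 (SE 0.69) did not pass (adjusted p = 0.22). As for Spry2, the same 4 marker lists were lower in the 4 leukemia libraries.

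**Figure D1:**
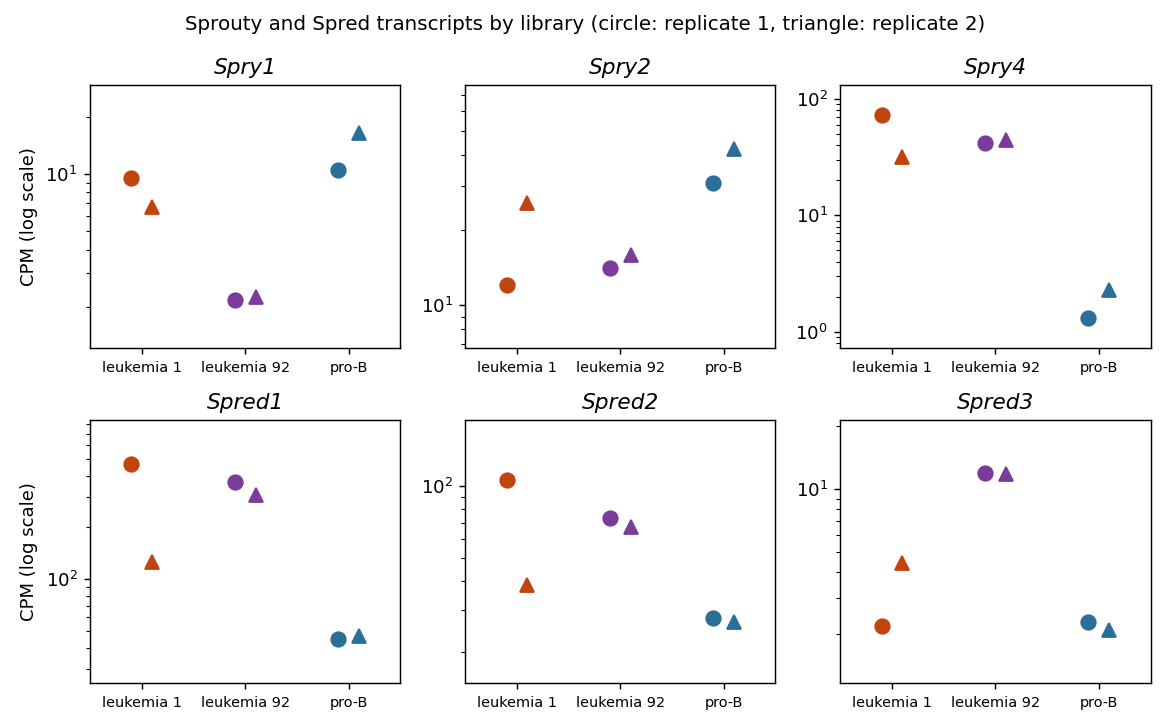
Level of each gene in each of the 6 libraries, in CPM on a log scale, with 1 panel per gene. Each point is 1 library, circles are replicate 1 and triangles replicate 2. Spry4, Spred1 and Spred2 lie higher in all 4 leukemia libraries than in both pro-B libraries, Spry1 and Spry2 lie lower, and Spred3 stands out in leukemia 92.

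Spred1, a partner of neurofibromin whose loss of function in people causes Legius syndrome, was the most abundant family transcript by reads in all 6 libraries. It was at 44.9 and 46.8 CPM in pro-B cells. In leukemia 1 it was at 469 and 126 CPM, and in leukemia 92 at 366 and 308 CPM. Both pro-B libraries were nearly equal, while the leukemia 1 libraries differed 3.72-fold, with the lower value in the library rich in granulocyte transcripts. The log2 change was 2.79 (SE 0.17, adjusted p = 0.0084), a 6.91-fold rise. Leaving out leukemia 1 replicate 1 gave 2.37 and ended the call (adjusted p = 0.071), whereas leaving out its partner gave 3.13 (adjusted p = 0.0091). With either pro-B library left out the adjusted p was 0.13.

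Spred2, the second member that binds neurofibromin, ranked the leukemia libraries in the same order at a lower level. It was at 27.7 and 26.6 CPM in pro-B cells, 106 and 38.3 CPM in leukemia 1, and 73.6 and 67.4 CPM in leukemia 92. Leukemia 1 replicate 2 was the lowest leukemia library and still lay above both pro-B libraries. The log2 change was 1.39 (SE 0.12, adjusted p = 0.013), a 2.61-fold rise, and 24.6% of all genes had a larger change in either direction. Leaving out leukemia 1 replicate 1 gave 1.03 and ended the call (adjusted p = 0.13), whereas leaving out its partner gave 1.69 (adjusted p = 0.022). The adjusted p was 0.18 without pro-B replicate 1 and 0.19 without pro-B replicate 2.

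Spred3, a Spred protein that lacks a functional Kit-binding domain, was the only family gene whose groups overlapped. It was at 2.30 and 2.11 CPM in pro-B cells, 2.19 and 4.40 CPM in leukemia 1, and 12.0 and 11.8 CPM in leukemia 92. Leukemia 1 replicate 1 lay between the pro-B libraries, and both leukemia 92 libraries lay above all others. The log2 change of 1.82 (SE 0.74) did not pass (adjusted p = 0.16). The monocyte gene Cd14, named after its values were seen, was also highest in leukemia 92. It was at 714 and 694 CPM there, 8.37 and 47.5 CPM in leukemia 1 and 1.89 and 2.81 CPM in pro-B cells. The granulocyte and monocyte list that holds Cd14 went another way. Its sum was highest in leukemia 1 replicate 2 (18508 CPM), above leukemia 92 (2877 and 2113 CPM). The part of such cells was not tested.

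**Figure D2:**
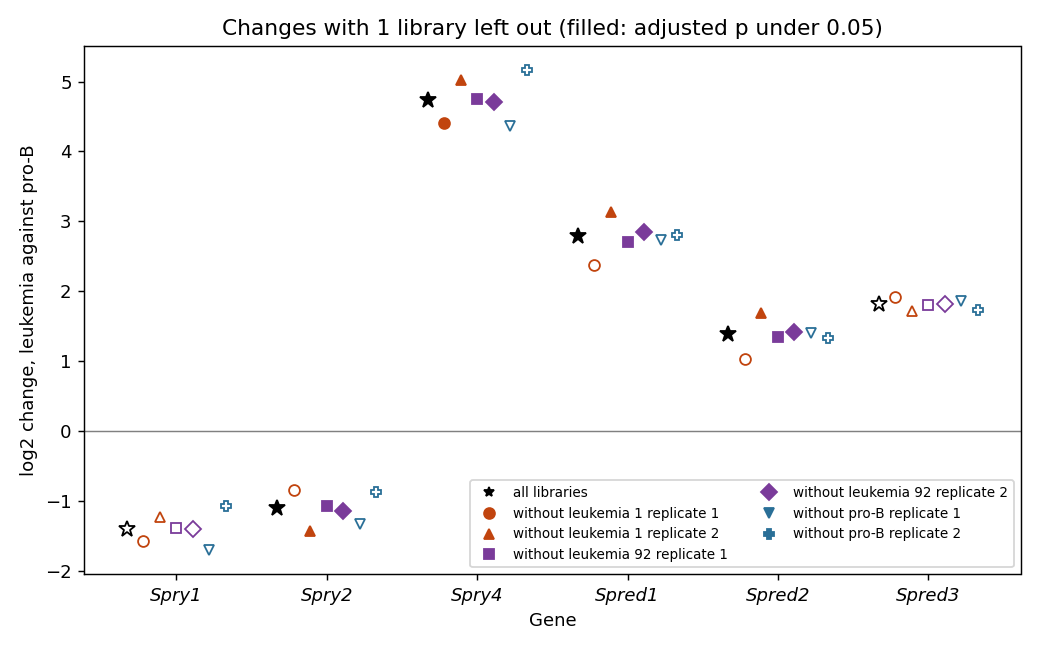
The log2 change of each gene between leukemia and pro-B cells with all libraries (stars) and with each library left out in turn. Filled symbols mark an adjusted p under 0.05. No gene changed sign, Spry4 alone stayed called without leukemia 1 replicate 1, and none was called with 1 pro-B library.

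Each leukemia was also set against the pro-B cells on its own, in a fit of all 6 libraries with 14979 genes tested. The comparisons share the pro-B libraries and are given side by side. Leukemia 1 differed in 2 of the 6 genes, both higher, with 20.3% of all genes called (9.55% higher and 10.7% lower). Leukemia 92 differed in 4 genes, 3 higher and 1 lower, with 31.4% of all genes called (14.7% higher and 16.7% lower). Over the family the median change in log2 was 0.995 in leukemia 1 and 1.90 in leukemia 92, against 0.05 and -0.04 over all genes.

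The log2 change of Spry4 was 4.88 in leukemia 1 (SE 0.56, adjusted p = 0.0088) and 4.60 in leukemia 92 (SE 0.55, adjusted p = 0.0063). Spred1 rose by 2.70 in leukemia 1 (SE 0.64, adjusted p = 0.046) and by 2.88 in leukemia 92 (SE 0.64, adjusted p = 0.029). Spred2 had log2 changes of 1.41 and 1.38 in leukemias 1 and 92, and neither passed (adjusted p = 0.11 and 0.091). Spry2 had log2 changes of -0.96 and -1.30, which did not pass either (adjusted p = 0.16 and 0.066). For each of these 4 genes the values of the leukemias lay within 1 standard error of each other.

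Spry1 and Spred3 had less alike values. Spry1 fell by 2.60 in leukemia 92 (SE 0.35, adjusted p = 0.0081), while its log2 change was -0.73 in leukemia 1 (adjusted p = 0.18). Spred3 rose by 2.43 in leukemia 92 (SE 0.41, adjusted p = 0.014), while its log2 change was 0.58 in leukemia 1 (adjusted p = 0.34). Without leukemia 1 replicate 2 the change of Spred3 in leukemia 1 was -0.048. The 4 calls in leukemia 92 were lost when any 1 library of leukemia 92 or of the pro-B cells was left out (0 of 6 called, with adjusted p of 0.053 to 0.18). With either library of leukemia 1 left out, all 6 genes kept their direction there. In leukemia 1, Spred1 lost its call without leukemia 92 replicate 1 or replicate 2 (adjusted p = 0.13 in each). Without pro-B replicate 1 or replicate 2 both calls of leukemia 1 were lost, Spry4 with adjusted p = 0.10 and 0.091. These fits share 1 spread over the groups, and the pair of leukemia 1 differed most. Without leukemia 1 replicate 1 or replicate 2 this pair adds nothing to the spread, and calls shift over the whole table (ranges below). Such calls are not read here as results on the family.

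**Figure D3:**
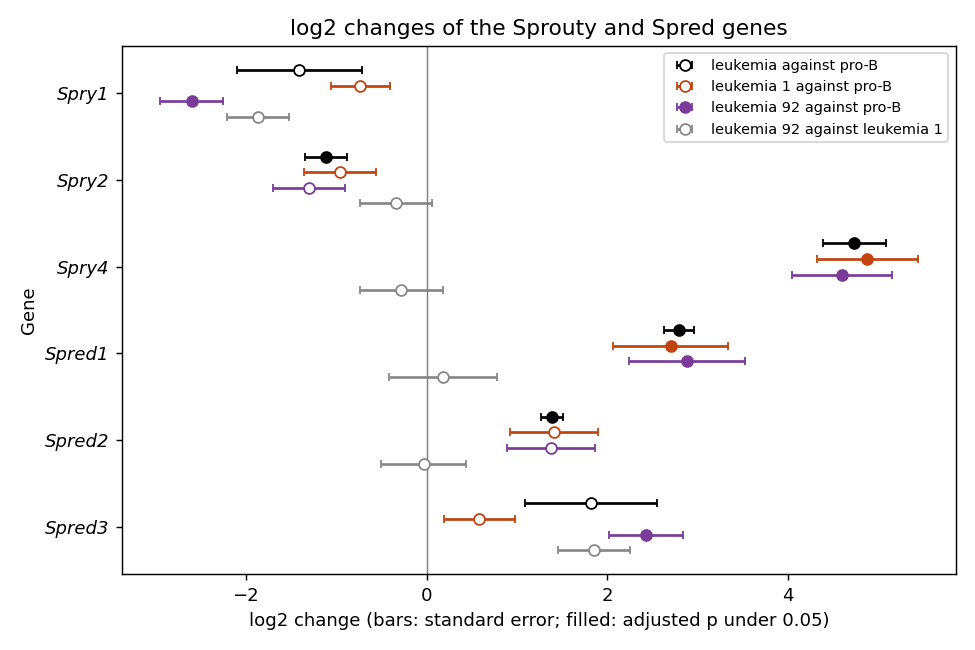
The log2 change of each gene in 4 comparisons, with bars for the standard error and filled symbols for an adjusted p under 0.05. Spry4 and Spred1 were called in leukemia 1 and in leukemia 92, Spry1 and Spred3 in leukemia 92, and no gene was called between the leukemias.

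The direct comparison of leukemia 92 with leukemia 1 called none of the 6 genes with edgeR. Over the whole table it called 3.09% of genes (1.82% higher in leukemia 92 and 1.27% lower). Spry1 was 2.21 ± 0.0454 CPM in leukemia 92 and 8.08 ± 1.96 CPM in leukemia 1 (SD, n = 2 each, log2 change -1.87, SE 0.34, edgeR adjusted p = 0.061). Spred3 was 11.9 ± 0.0993 CPM in leukemia 92 and 3.30 ± 1.56 CPM in leukemia 1 (log2 change 1.85, SE 0.40, edgeR adjusted p = 0.079). In both genes the 2 libraries of leukemia 92 lay apart from the 2 libraries of leukemia 1. These 2 genes had an unadjusted p under 0.05, and DESeq2 called both (adjusted p = 2.27e-04 for Spry1 and 8.13e-04 for Spred3). DESeq2 also called many more genes than edgeR over the whole table, as given in the last section. A difference between the leukemias was thus called in Spry1 and Spred3 by 1 of the 2 tools.

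The other 4 genes had log2 differences between -0.34 and 0.18 with adjusted p between 0.63 and 0.98. The standard errors, 0.40 to 0.60, leave room for sizeable differences. Their direction turned with the library of leukemia 1 that was kept. For Spred1 the log2 difference was 1.43 against leukemia 1 replicate 2 alone and -0.47 against replicate 1 alone. For Spred2 these values were 0.89 and -0.59, for Spry4 0.47 and -0.76, and for Spry2 -0.77 and 0.30. Calls from fits with 1 library of leukemia 1 are not given here. They assume that the lone library varies as the other groups do. Spry1 (-1.59 and -2.09) and Spred3 (1.44 and 2.44) kept their direction with either library.

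Per length of transcript, Spry2 led the family in pro-B cells and Spred1 in leukemia. Levels were divided by the kilobases of exon of each gene (2.087 for Spry2 to 6.784 for Spred1, from the GENCODE vM21 annotation of GRCm38, matched by symbol). In pro-B cells Spry2 was at 17.6 ± 3.91 CPM per kilobase (SD, n = 2). Spred1, Spred2 and Spry1 came next at 6.76 ± 0.203, 6.11 ± 0.170 and 4.62 ± 1.42 CPM per kilobase, and Spry1 overlapped Spred2 within its spread. Spred3 and Spry4 were lowest at 0.543 ± 0.0332 and 0.374 ± 0.144 CPM per kilobase.

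In leukemia 92 the order was Spred1 (49.7 ± 6.02 CPM per kilobase), Spred2 (15.8 ± 0.972), Spry4 (9.08 ± 0.470), Spry2 (7.17 ± 0.604), Spred3 (2.93 ± 0.0245) and Spry1 (0.761 ± 0.0156). Each step in this order was larger than the spread of the neighbours. In leukemia 1 the means ran in the same order but for the last pair: Spred1 (43.9 ± 35.8), Spred2 (16.2 ± 10.8), Spry4 (11.01 ± 6.23), Spry2 (9.05 ± 4.59), Spry1 (2.78 ± 0.676) and Spred3 (0.813 ± 0.384 CPM per kilobase). There the SDs of the first 4 genes overlapped, so their order is not resolved. By the mean, Spry4 was last in pro-B cells and the third in each leukemia. In leukemia 1 replicate 2 alone it was at 6.61 CPM per kilobase, below Spry2 (12.3) and Spred2 (8.602).

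The makeup of the family changed with these levels. Spry2 made up 46.2% and 51.1% of the summed per-kilobase level in pro-B cells, and 4.92%, 24.8%, 7.51% and 9.34% in the 4 leukemia libraries (leukemia 1 first). Spred1 made up 20.6% and 17.3% in pro-B cells, and 58.6%, 37.6%, 60.2% and 55.9% in leukemia. Leukemia 1 replicate 2 lay between the other leukemia libraries and the pro-B cells in both shares. Spry4 made up 0.847% and 1.19% in pro-B cells and 9.75% to 13.4% in leukemia, with both leukemia 1 libraries alike (13.1% and 13.4%). Spred2 held 15.0% to 20.2% in every library.

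The 2 branches of the family differed in their sums. The summed Sprouty level was 18.8 and 26.5 CPM per kilobase in pro-B cells and 16.2 to 24.5 CPM per kilobase in leukemia, so the groups overlapped. The rise of Spry4 and the lower level of Spry2 lay side by side within this sum: there were 0.0418 and 0.0531 reads of Spry4 per read of Spry2 in pro-B cells, and 1.22 to 6.05 in leukemia. The summed Spred level was 13.4 CPM per kilobase in both pro-B libraries. In leukemia it was 93.5 and 28.3 CPM per kilobase in leukemia 1 and 73.5 and 63.5 in leukemia 92, all above pro-B cells. These sums and shares are descriptions and were not tested.

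**Figure D4:**
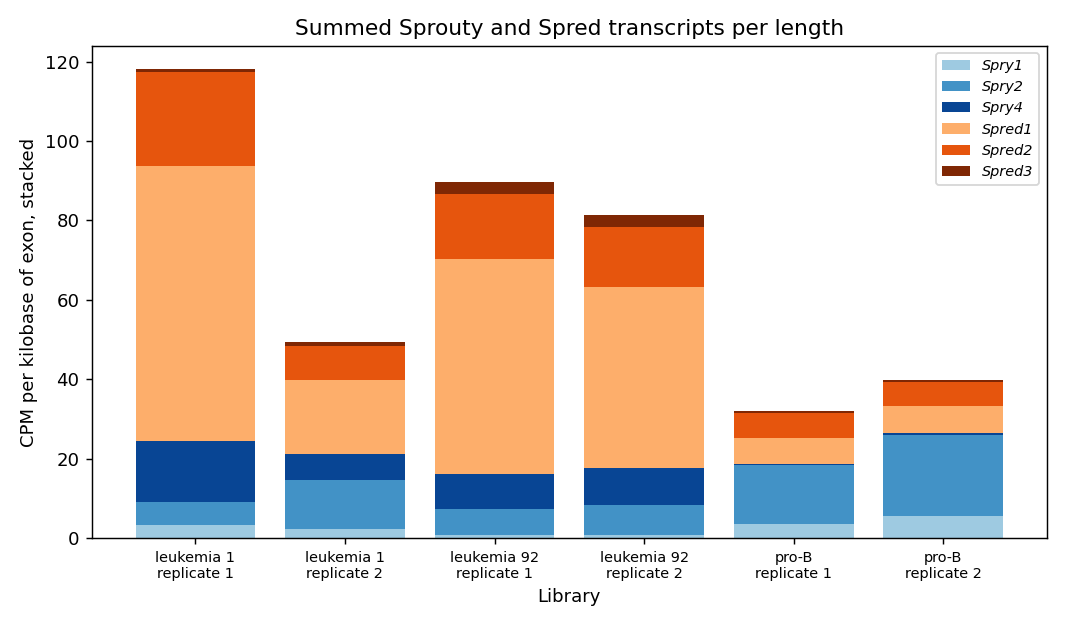
Stacked level of the 6 genes in each library, in CPM per kilobase of exon, 1 bar per library starting at 0. The pro-B bars (32.2 and 39.9) are led by Spry2 and the leukemia bars (49.5 to 118) by Spred1, and the bar of leukemia 1 replicate 2 is the lowest of the leukemia bars.

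Partners and targets of Sprouty and Spred were called about as often as genes in general. In leukemia 4 of 30 such genes rose, 2 fell and 24 did not pass, beside 20.2% called over all genes, and their median was 0.08. Nras had 372 and 343 CPM in leukemia 1, 521 and 543 CPM in leukemia 92, and 157 and 156 CPM in pro-B cells. This was a log2 change of 1.52 (SE 0.26, edgeR adjusted p = 0.032). These counts do not separate the introduced N-RasG12D from the mouse's own Nras. Nf1, the RAS inactivator recruited by Spred proteins, was at 44.5 ± 10.9 CPM in leukemia (SD, n = 4) and 37.1 ± 0.608 CPM in pro-B cells (n = 2), with overlapping groups. Its log2 change of 0.26 did not pass (SE 0.14, edgeR adjusted p = 0.25).

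The other genes of this list called higher were the kinase Mknk2 (log2 change 0.79), the phospholipase Plcg2 (1.39) and the caveolin Cav1 (3.80). Of these, Cav1 was at only 0.0406 to 4.40 CPM in leukemia, which overlapped the pro-B range of 0.0741 to 0.156 CPM. All 3 lost their calls without leukemia 1 replicate 1 (adjusted p = 0.053, 0.062 and 0.073, in that order), and Cav1 also without leukemia 92 replicate 2 (adjusted p = 0.065). With the first of these libraries left out the log2 changes were 0.89, 1.36 and 4.51, in the same order. Without leukemia 1 replicate 2, Cav1 was not among the genes tested. That library held 119 reads of Cav1, against 1 read in leukemia 1 replicate 1.

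The called falls were both ubiquitin ligases. Nedd4, which acts on Sprouty proteins, was at 428 and 420 CPM in pro-B cells and at 6.95 to 37.8 CPM in leukemia. This was a log2 change of -3.87 (SE 0.34, adjusted p = 0.014). Leaving out leukemia 1 replicate 2 gave -4.28 and ended the call (adjusted p = 0.051). Cblb, a relative of CBL, fell from 89.0 ± 1.24 to 44.9 ± 5.38 CPM (log2 change -0.99, edgeR adjusted p = 0.019). The adaptor Grb2 (log2 change 0.74, adjusted p = 0.061) and the kinase Braf (0.53, adjusted p = 0.051) did not pass.

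Among receptors upstream of RAS, 11 of 16 had enough reads to be tested, of which 1 rose, 3 fell and 7 did not pass. Over all genes 9.54% were called higher and 10.7% lower. The median of the receptors was -1.76. Csf1r, the receptor for macrophage colony-stimulating factor and itself in the monocyte marker list, had 138 and 212 CPM in leukemia 1, 464 and 436 CPM in leukemia 92, and 3.56 and 5.27 CPM in pro-B cells (log2 change 6.18, SE 0.68, adjusted p = 0.017). The epidermal growth factor receptor Egfr fell from 32.0 ± 5.28 to 0.200 ± 0.188 CPM (log2 change -7.26, edgeR adjusted p = 0.0065, and -8.17 without leukemia 1 replicate 2). The endothelial receptor Kdr had a log2 change of -4.53 (adjusted p = 0.014), which was -5.34 without that library. Igf1r fell by 2.30 (adjusted p = 0.023). It lost its call without leukemia 1 replicate 1 (log2 change -1.69, adjusted p = 0.13) or replicate 2 (log2 change -3.42, adjusted p = 0.14). The progenitor receptors Kit (log2 change -2.25, adjusted p = 0.18) and Flt3 (-1.76, adjusted p = 0.054) and the interleukin receptor Il7r (-1.12, adjusted p = 0.084) did not pass.

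Most other genes commonly induced by ERK rose: 12 of 19 passed as higher, 1 as lower and 6 did not pass. Over all genes 9.54% were called higher and 10.7% lower. The median of this list was 2.43. Etv4, an ETS factor, was at 0.259 and 0.351 CPM in pro-B cells and at 58.2 to 80.3 CPM in leukemia (log2 change 7.80, SE 0.22, adjusted p = 0.0065). Phlda1 was at 7.41 and 8.15 CPM in pro-B cells and at 99.2 to 131 CPM in leukemia (log2 change 3.94, SE 0.18). The early transcription factor Egr1 was at 72.3 and 68.6 CPM in pro-B cells and at 355 to 803 CPM in leukemia (log2 change 3.25). Dusp6, the phosphatase of ERK, rose from 140 ± 0.483 to 508 ± 55.7 CPM (log2 change 1.87, SE 0.11, edgeR adjusted p = 0.0083). The ETS factor Etv1 fell by 1.53 (adjusted p = 0.046), and lost its call without any single library (lowest adjusted p = 0.053). Without leukemia 1 replicate 1 the list had 10 genes called higher, and without replicate 2 it had 11.

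**Figure D5:**
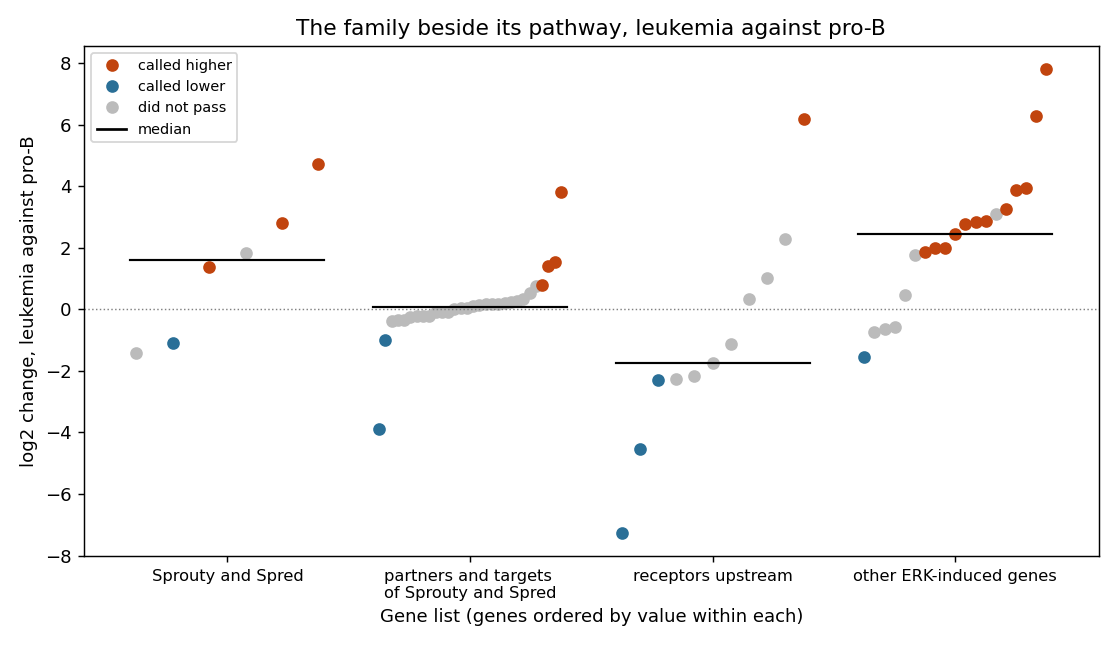
The log2 change between leukemia and pro-B cells of every tested gene in the family and in the 3 pathway lists, ordered by value within a list. Colours mark genes called higher or lower and lines mark the medians. The family (median 1.60) has calls in both directions, and the other ERK-induced genes (median 2.43) are called mostly higher.

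Between the leukemias, edgeR called 3.09% of all genes. In these lists it called 0 of 30 partners and targets, 2 of 12 receptors and 2 of 19 other ERK-induced genes. These 4 genes were all higher in leukemia 92 and were named after their values were seen. The receptors were Fgfr2 (log2 difference 6.36, SE 0.77, edgeR adjusted p = 0.034) and Pdgfrb (3.01, adjusted p = 0.040). Fgfr2 had 183 and 60 reads in leukemia 92, 1 and 2 reads in leukemia 1, and 2 reads in each pro-B library. Between leukemia and pro-B cells it was not among the genes tested. The ERK-induced genes were the phosphatase Dusp7 (1.98, SE 0.16, edgeR adjusted p = 0.023) and the cyclin Ccnd1 (0.96, adjusted p = 0.046). With 1 library of leukemia 92 or of the pro-B cells left out, edgeR called 0 genes between the leukemias, against 1552 to 2303 genes at an unadjusted p under 0.05.

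The genes with the profile most like each family member over the 6 libraries were looked up among genes with a mean of at least 10 CPM. Likeness was the root mean square difference of log2 levels after centring each gene on its own mean, over the 6 libraries, and genes so chosen share depth and library makeup. For Spry2 these were Nmral1 (0.11) and the transcript 8430419L09Rik (0.14), and for Spry1 Gas7 (0.18) and the chemokine receptor Cxcr4 (0.19). Cxcr4 had 166 and 160 CPM in leukemia 1, 63.7 and 46.2 CPM in leukemia 92 and 235 and 346 CPM in pro-B cells, the order of the groups for Spry1. For Spry4 they were Niacr1 (0.30) and Pros1 (0.33), so no gene came as close as for the other members.

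For Spred1 the closest genes were Gpr183 (0.12), a receptor that guides B cells within lymphoid tissue, and Rrad (0.20). Gpr183 had 86.3 and 21.8 CPM in leukemia 1, 53.9 and 47.6 CPM in leukemia 92 and 6.74 and 8.07 CPM in pro-B cells. It shared with Spred1 the low value in leukemia 1 replicate 2. For Spred2 they were Mtmr14 (0.093) and the thiamine transporter Slc19a2 (0.11). For Spred3 they were Crip1 (0.10) and Gm14492 (0.13). Crip1 had 197 and 307 CPM in leukemia 1, 916 and 921 CPM in leukemia 92 and 181 and 189 CPM in pro-B cells.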

How the data were processed

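Total RNA was sequenced in 6 libraries, and the table deposited by the authors gives raw counts of reads for each gene. The submitters' processing notes name STAR 2.4, HTSeq 0.6.1, DESeq2 and build mm9, with no role or order. The annotation, like the strand setting, is not given in the sources used here. The 5 entries that name no gene (34.0% to 39.6% of a library) were left out. With 22153444 to 27444759 reads in genes, 3 counts correspond to 0.111 to 0.140 CPM.

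Counts were filtered (filterByExpr, minimum count 10), TMM-scaled and tested with the robust quasi-likelihood test of edgeR 4.0.16 in R 4.3.3, with Benjamini-Hochberg adjustment over all genes. DESeq2 1.42.0 and other scalings, filters and sets of libraries were alternatives. The procedure was tested on simulated data. The simulation gave all groups the same spread, so it cannot show how the test behaves with the wider spread of leukemia 1. The SE of a log2 change comes from its F statistic. CPM are means ± SD over libraries. Likeness used log2(CPM + 0.5). Genes named from each pathway list were Nras, Nf1, Dusp6 and up to 4 called in each direction with the smallest p. Grb2, Braf, Kit, Flt3 and Il7r were added after their values were seen. The family members, gene lists and marker lists were chosen with earlier results of these data known. Hras had no row under that symbol and was matched as Hras1. The strand was not stated, so reads of overlapping antisense genes cannot be told apart.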

Additional observations from a re-analysis of the deposited data

How the results depend on the processing

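The direction of all 6 genes between leukemia and pro-B cells was the same under the 13 alternatives run. Spry1 and Spred3 were called in 3 and 2 of these. RLE scaling and no filter left the same 4 calls. Genes called numbered 3089, against 4769 with DESeq2, 4712 without summing libraries, 10134 without both libraries of leukemia 1 and 9335 without both of leukemia 92, where only the paired libraries give the spread. Without summing, 4 family genes were called, with Spry1 (adjusted p = 0.012) and Spred3 (0.035) gained and Spry2 (0.058) and Spred2 (0.070) lost. With each library left out in turn, 0 to 3244 genes and 0 to 4 family genes were called. For leukemia 1 alone these ranges were 0 to 9641 and 0 to 5, for leukemia 92 alone 472 to 10746 and 0 to 6, and between the leukemias 0 to 8133 and 0 to 5. With only the 4 libraries compared, leukemia 1 had 932 genes and 1 family gene called, and leukemia 92 10447 genes. DESeq2 called 2667 genes and 2 family genes between the leukemias, against 463 and 0. The cause of these shifts was not tested.

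With 1 library left out, the change of Spred3 in leukemia 1 ran from -0.048 (without leukemia 1 replicate 2) to 0.99. The differences between the leukemias ran from -0.76 to 0.47 for Spry4, -0.59 to 0.89 for Spred2, -0.77 to 0.30 for Spry2 and -0.47 to 1.43 for Spred1.

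Deviations of same-numbered libraries correlated at -0.16, 0.061 and -0.034. These values show no clear pairing by replicate number, but with 2 libraries a group they cannot decide it. With a replicate block, leukemia against pro-B gave 3373 genes and 4 family genes, with Spry1 gained (adjusted p = 0.036) and Spred2 lost (0.081). The block gave 1439 genes and 1 family gene for leukemia 1, 3135 genes and 5 family genes for leukemia 92, and 0 genes between the leukemias (3042 at an unadjusted p under 0.05 with edgeR), where the change of Spred2 was 0.086. Low read numbers limit Spry4 (35 and 58 reads) and Spred3 (62 and 54 reads) in pro-B cells. They also limit Spry1 in leukemia 92, with 53 and 48 reads, against 284 and 419 reads in pro-B cells. The same holds for Spred3 in leukemia 1, with 54 and 119 reads, against 291 and 253 reads in leukemia 92.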
